A study of Populus tremula x Populus alba with 12 samples.

Results

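The data described here are read counts of the 61 loci of poplar chromosome 13 that had a row from Potri.013G133400 to Potri.013G144200 in ID order, in 12 leaf RNA-seq libraries. Members are all rows of the deposited tables in this ID range with at least 15 counts in total over the 12 libraries. All 61 rows in the range met this minimum, out of 16866 rows in all, each was a separate locus, and the smallest total was 37 counts. The ID range spans 109 possible locus numbers, so 56.0% of them had a row, against 42.6% for chromosome 13 as a whole. The run was selected on the variation of these same counts between these same libraries, so its levels and correlations are given as descriptions without a test.

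The plants were clones of the hybrid *Populus tremula* × *P. alba*, labelled INRA 717, grown in a greenhouse for 3 months, and fully expanded leaves were taken from the middle of the stem. The 4 genotypes were knockout, in which a glycosyltransferase was disrupted with CRISPR, intermediate phenotype (called intermediate here), empty-vector, which carries the vector alone, and wild-type, with 3 libraries each. The labels do not name the edited gene or say how the intermediate plants were edited, and they do not say whether the libraries of a genotype came from 1 line or several, so p-values cover only the spread among the sequenced libraries. Library totals ranged from 5.38 to 17.3 M counts, the deepest being empty-vector library 2.

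A run of neighbouring loci in a plant chromosome can hold tandem copies of one gene, genes of one pathway, unrelated genes, or a stretch of organelle DNA that moved into the nucleus. Neighbours can also share promoters or, where their sequences are alike, sequencing reads. The files do not pair any of the 61 IDs with a gene name or function, so the members are described by ID, level and pattern, and which of these kinds of run this is was not tested. Levels are CPM, counts divided by the TMM-scaled total of their library, and are not corrected for gene length, so they compare libraries and not genes.

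Of the 61 members, 50 had enough counts to enter the test over all rows. Their totals ranged from 107 to 232266 counts, and 25 of them exceeded 1000 counts. The 11 others totalled 37 to 99 counts. Among these 11, Potri.013G137200.1 had 12, 4 and 52 counts in the knockout libraries. The intermediate libraries had 0, 1 and 1, the empty-vector libraries 0, 1 and 1, and each wild-type library 0. All 3 knockout libraries thus lay above the 9 others. Of its 72 counts 68 came from knockout, 52 of them from library 3, so it reached the minimum of 15 counts through the group in which it was high, and no ratio is given. It was singled out after its values were seen.

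The run stood highest in 2 wild-type libraries. Its level in a library was taken as the median over the 50 tested members of log2 CPM minus each member's own mean over the 12 libraries. The knockout libraries had levels of −0.07, −0.46 and −0.26, and the intermediate libraries 0.22, −0.22 and 0.54. The empty-vector libraries had −0.56, 0.20 and −0.54, and the wild-type libraries 0.90, 0.91 and −0.0022. Every pair of genotypes overlapped in these levels except knockout and wild-type. There the highest knockout library, at −0.07, lay just below the lowest wild-type library, at −0.0022. In 3 of the 4 genotypes a single library stood on the other side of 0 from its 2 companions or well away from them. Wild-type libraries 1 and 2 had 38 and 40 of the 50 members above their own mean, whereas wild-type library 3 had 25. Empty-vector libraries 1 and 3 had 6 and 7 members above their mean, and empty-vector library 2 had 29. The knockout mean was −0.27 ± 0.20, the intermediate mean 0.18 ± 0.38, the empty-vector mean −0.30 ± 0.43 and the wild-type mean 0.60 ± 0.52 (log2 scale, SD, n = 3 each), so that the means of the control genotypes lay farther apart than those of knockout and empty-vector. The level of knockout library 1 was 0.13 when wild-type library 1 was left out of the calculation.

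**Figure D1:**
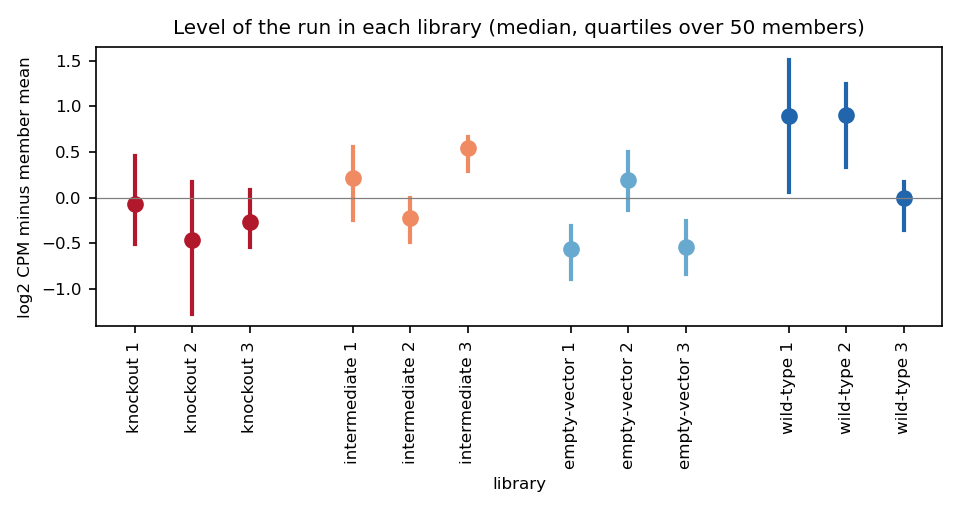
The run's level in each of 12 libraries, as the median (point) and quartiles (line) over 50 members of log2 CPM minus the member's mean, by genotype. Wild-type 1 and 2 stand highest, at 0.90 and 0.91, and empty-vector 1 and 3 lowest, at −0.56 and −0.54.

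Some library features moved with these levels. The scaling factor of the libraries (TMM) ran from 0.917 to 1.13. It was lowest in intermediate libraries 3 and 1 and highest in empty-vector libraries 3 and 1, which had the lowest levels of the run. Of 5 IDs listed as secondary wall cellulose synthases of xylem, from published assignments not checked against an annotation, 3 were measured, and their summed level was 357 to 1527 CPM in knockout leaves, 676 to 930 CPM in intermediate leaves, 658 to 1291 CPM in empty-vector leaves and 497 to 933 CPM in wild-type leaves. Within empty-vector and within wild-type, the libraries with a high run level had the lower sums. This did not hold within the other genotypes. Intermediate library 1 had 930 CPM and library 2, with a lower run level, 712 CPM. Knockout library 1 had 1402 CPM and library 3, with a lower run level, 357 CPM. In bulk leaf RNA a change in the mix of cells and a change of RNA per cell cannot be told apart, and the part of scaling factors, depth and cell mix in the levels was not tested. Leaf marker genes could not be looked up without an annotation.

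The order of libraries within a genotype was shared by many members. These orders were chosen after the values were seen, and each is given beside its share of all 14279 tested rows. Wild-type libraries 1 and 2 both lay above library 3 in 34 of 50 members, or 68.0%, against 35.6% of all rows. Empty-vector library 2 lay above libraries 1 and 3 in 37 members, or 74.0%, against 34.8% of all rows. Intermediate libraries 1 and 3 lay above library 2 in 31 members, or 62.0%, against 34.0% of all rows. Knockout libraries 1 and 3 lay above library 2 in 25 members, or 50%, against 34.8% of all rows. All 4 orders held together in 20 members, or 40%, against 5.48% of all rows.

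**Figure D2:**
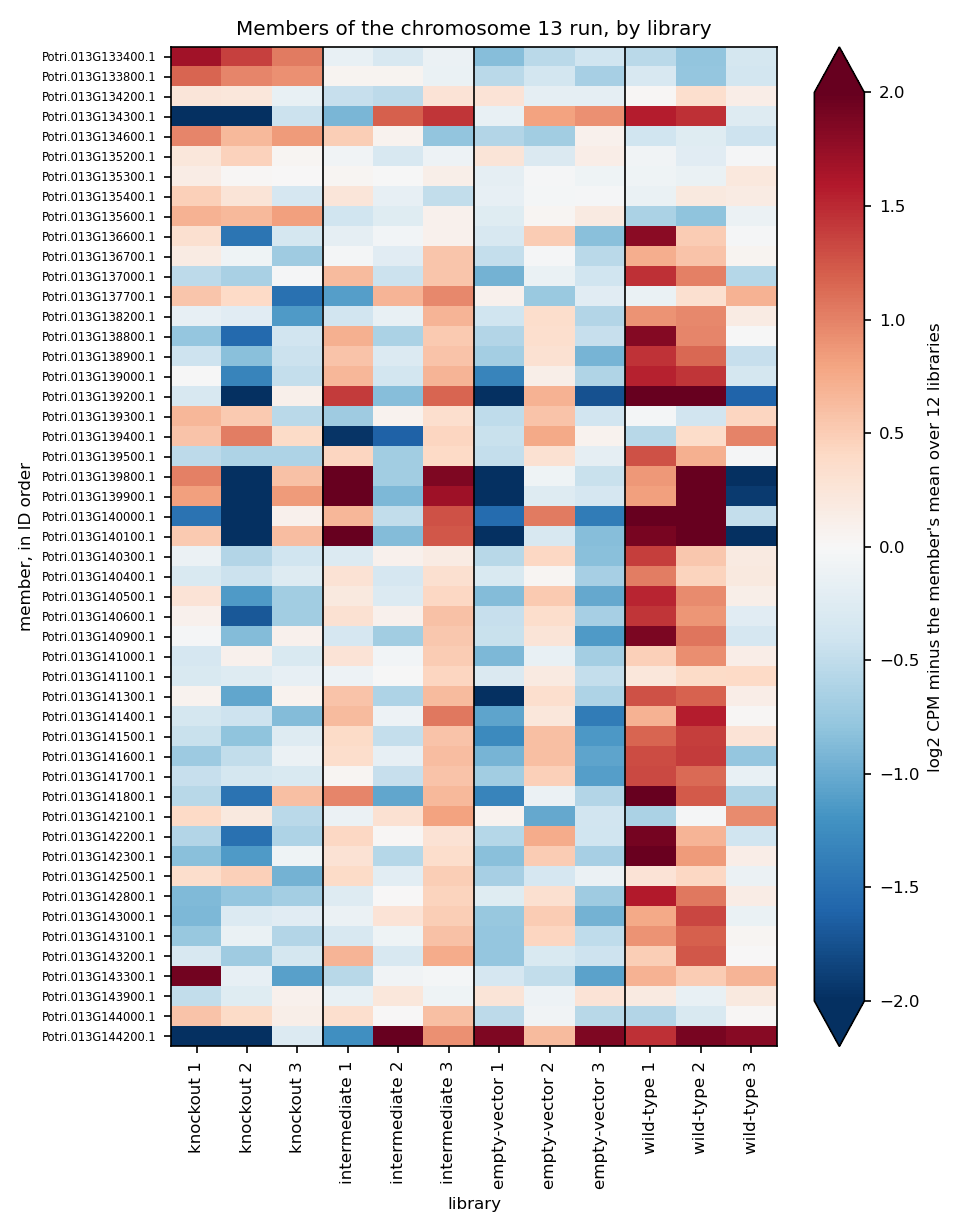
Log2 CPM minus each member's mean over 12 libraries (colour, limited to 2 in either direction) for the 50 tested members in ID order (rows) in the 12 libraries by genotype (columns). Most members from Potri.013G136600.1 to Potri.013G143200.1 are high in wild-type 1 and 2, while the first 9 rows mostly are not.

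The members varied widely between libraries. From the lowest to the highest library, the median member spanned 2.43 on the log2 CPM scale, where the median of all tested rows spanned 1.32. In 32 of the 50 members, or 64.0%, the span exceeded 4-fold, against 24.7% of all rows, and in 7 members, or 14%, it exceeded 16-fold, against 4.11% of all rows. The SD of log2 CPM within genotypes had a median of 0.64 over the members and 0.32 over all tested rows. The share of a member's variance that lay within genotypes had a median of 51.4%, close to the 50.7% of all tested rows.

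The largest counts of the run belonged to Potri.013G139800.1, which alone had 232266 counts. It read 2629, 126 and 1966 CPM in knockout leaves and 8247, 811 and 4754 CPM in intermediate leaves. It read 134, 1233 and 956 CPM in empty-vector leaves and 2383, 10289 and 308 CPM in wild-type leaves. Within every genotype the highest library thus exceeded the lowest by more than 4-fold, the highest of the 12 being wild-type library 2 and the lowest knockout library 2. The span was 81.5-fold, and 75.7% of the variance of its log2 CPM lay within genotypes.

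Potri.013G139900.1, the next row, followed it closely. It read 412, 33.9 and 425 CPM in knockout leaves, 1228, 125 and 759 CPM in intermediate leaves, 28.7, 195 and 185 CPM in empty-vector leaves, and 414, 1469 and 62.1 CPM in wild-type leaves. Here too libraries of 1 genotype differed more than the genotypes did. The Pearson correlation of the pair over the 12 libraries was 0.996 on the log2 CPM scale, the highest of all 49 neighbouring pairs in the run. The ratio of the CPM of Potri.013G139800.1 to that of Potri.013G139900.1 stayed between 3.72 and 7.00 in the 12 libraries while each row moved by more than 16-fold.

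Potri.013G140100.1, 2 rows further on, read 403, 64.0 and 430.4 CPM in knockout leaves, 1360, 154 and 665 CPM in intermediate leaves, 41.3, 225 and 154 CPM in empty-vector leaves, and 1043, 1496 and 67.3 CPM in wild-type leaves. It correlated with Potri.013G139800.1 at 0.963. Wild-type library 1 set it apart, where the CPM ratio of Potri.013G139800.1 to it was 2.28 against 6.88 in wild-type library 2; the ratio was lowest in knockout library 2, at 1.97. These 3 rows tracked the remaining members less closely, with correlations between 0.63 and 0.72 with their median.

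The row between them, Potri.013G140000.1, behaved more like the rest of the run. It read 20.9, 11.4 and 62.1 CPM in knockout leaves, 93.5, 41.7 and 142 CPM in intermediate leaves, 20.01, 121 and 22.1 CPM in empty-vector leaves, and 292, 304 and 42.1 CPM in wild-type leaves. Its correlation with the median of the members outside the 3 rows above was 0.923. Knockout library 1 lay below knockout library 3 for this row, although it was the highest knockout library for Potri.013G139800.1. Potri.013G139200.1 had a similar shape, at 4.45, 0.746 and 6.03 CPM in knockout leaves and 15.2, 3.00 and 12.8 CPM in intermediate leaves. It read 1.21, 9.26 and 1.49 CPM in empty-vector leaves and 38.99, 46.3 and 1.69 CPM in wild-type leaves. Both wild-type libraries 1 and 2 exceeded all 10 others for these 2 rows.

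**Figure D3:**
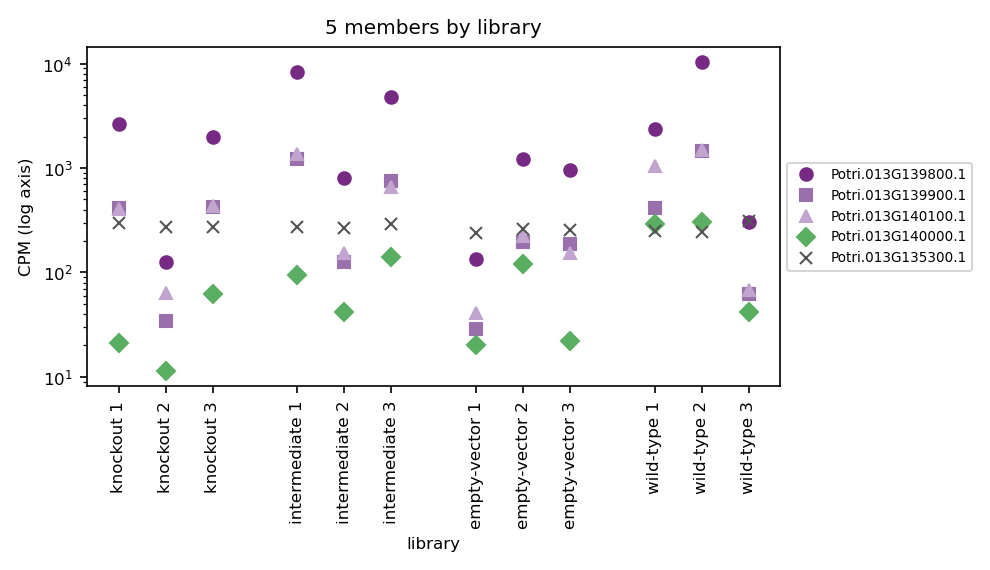
CPM (log axis) of 5 members in each library, by genotype. Potri.013G139800.1, Potri.013G139900.1 and Potri.013G140100.1 move together by more than 16-fold, while Potri.013G135300.1, from the start of the run, stays between 236 and 310.2 CPM.

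Further members with a large spread moved the same way with a smaller span. Potri.013G141800.1 read 7.36, 3.73 and 16.6 CPM in knockout leaves, 21.7, 5.17 and 17.2 CPM in intermediate leaves, 4.19, 10.0 and 7.15 CPM in empty-vector leaves, and 52.0, 25.8 and 7.05 CPM in wild-type leaves. Potri.013G141300.1 spanned 12.6-fold, from 0.744 CPM in empty-vector library 1 to 9.41 CPM in wild-type library 1. Potri.013G141000.1, with more counts, spanned only 3.58-fold, from 67.4 CPM in empty-vector library 1 to 241 CPM in wild-type library 2, and still correlated at 0.846 with the rest of the run.

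Other members, some of the most counted among them, did not share the pattern. Potri.013G135300.1 read 297, 274 and 271 CPM in knockout leaves, 276, 268 and 291 CPM in intermediate leaves, 236, 263 and 253 CPM in empty-vector leaves, and 252, 245 and 310.2 CPM in wild-type leaves, a span of only 1.31-fold. Potri.013G143900.1 spanned 1.70-fold, between 120.1 and 205 CPM. Potri.013G143300.1 read 423, 98.8 and 51.9 CPM in knockout leaves and 74.9, 105 and 108 CPM in intermediate leaves. It read 87.3, 78.7 and 52.9 CPM in empty-vector leaves and 178, 157 and 178 CPM in wild-type leaves. Knockout library 1 stood alone at the top of this row, and the 3 wild-type libraries were close to each other above the rest. Potri.013G139400.1 read 29.9, 41.02 and 26.3 CPM in knockout leaves, 4.96, 6.34 and 27.1 CPM in intermediate leaves, 14.6, 34.2 and 21.0 CPM in empty-vector leaves, and 13.6, 25.8 and 40.3 CPM in wild-type leaves, and was lowest in intermediate libraries 1 and 2.

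Neighbouring members rose and fell together in the middle of the run and less at its ends. The median Pearson correlation of the 49 adjacent pairs over the 12 libraries was 0.67 (quartiles 0.04 and 0.88), and the median Spearman correlation was 0.65. Over all 13746 adjacent pairs of tested rows on the chromosomes the median Pearson correlation was 0.08, and over the 611 pairs of chromosome 13 it was 0.13. In the run 16 pairs, or 32.7%, exceeded 0.8, against 5.33% of all pairs. All pairs share the 12 libraries, their depths and their scaling, and the run was proposed for this pattern, so no p-value is given. With genotype means subtracted, which leaves only the differences between libraries of 1 genotype, the median of the 49 pairs was 0.47, against 0.06 over all pairs.

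The longest unbroken stretch of adjacent pairs with a correlation over 0.5 ran from Potri.013G139500.1 to Potri.013G141800.1, 18 rows and 17 pairs. It was the only stretch of 10 or more such pairs among the chromosomes of the table; the next longest, from Potri.003G169100.1 to Potri.003G170400.1 and from Potri.019G119200.1 to Potri.019G122900.1, had 8 pairs each. Within the 18 rows, the median correlation over all pairs, adjacent or not, was 0.793 and the lowest was 0.349. The highest pairs of the run after Potri.013G139800.1 with Potri.013G139900.1 were Potri.013G133400.1 with Potri.013G133800.1, at 0.965, and Potri.013G139000.1 with Potri.013G139200.1, at 0.960. The lowest pairs were Potri.013G134300.1 with Potri.013G134600.1, at −0.74, Potri.013G143900.1 with Potri.013G144000.1, at −0.71, and Potri.013G144000.1 with Potri.013G144200.1, at −0.65.

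**Figure D4:**
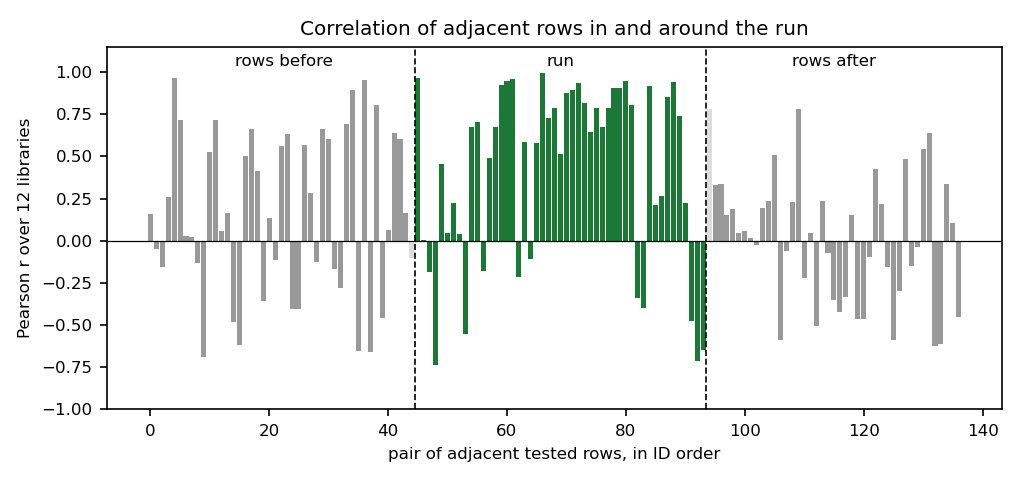
Pearson correlation over 12 libraries of log2 CPM of adjacent tested rows in ID order, for the run (green, between the dashed lines) and the rows up to 50 before and after it (grey; light grey, pairs across an end). Correlations over 0.5 follow one another in the middle of the run. Its first pair is at 0.965, its last 3 pairs are at −0.47, −0.71 and −0.65, and the medians of the flanks are 0.16 before it and 0.03 after it.

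The correlation reached beyond nearest neighbours. For members 5 rows apart the median was 0.62, for members 10 rows apart 0.58 and for members 20 rows apart 0.34, against 0.019, 0.0032 and 0.0035 for all rows at these distances. For members 40 rows apart it was 0.10 over 10 pairs. In 5 successive groups of 10 members, the median correlation over all pairs within a group was 0.13 in the first, 0.56 in the second, 0.80 in the third, 0.80 in the fourth and 0.25 in the last.

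Each member was also set against the median of the other 49. The correlation exceeded 0.8 in 27 members and was below 0 in 12. It was 0.960 for Potri.013G138900.1 and 0.957 for Potri.013G141500.1. It was −0.63 for Potri.013G135600.1 and −0.60 for Potri.013G135200.1, both from the opening rows. Members outside the pattern also lay inside the correlated middle of the run. Potri.013G142100.1 read 296, 258 and 155 CPM in knockout leaves, 208, 278 and 394 CPM in intermediate leaves, 235, 110.3 and 173 CPM in empty-vector leaves, and 145, 221 and 434 CPM in wild-type leaves. It was highest in wild-type library 3, where the level of the run was −0.0022, and its correlation with the rest was −0.10. Potri.013G139300.1 and Potri.013G139400.1, at −0.0028 and −0.07, stood between correlated neighbours in the same way.

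The median correlation of neighbours was lower in both flanks than in the run. Among the 50 rows directly before the run, 44 adjacent tested pairs had a median correlation of 0.16, and among the 50 directly after it 42 pairs had 0.03. Correlations over 0.5 made up 38.6% of the pairs before the run and 9.52% of those after it, against 59.2% in the run and 20.4% of all pairs. The SD within genotypes had a median of 0.35 in either flank, against 0.64 in the run. The nearest row before the run, Potri.013G133300.1, read 3.42, 5.78 and 5.92 CPM in knockout leaves, 4.96, 5.01 and 7.21 CPM in intermediate leaves, 3.54, 6.29 and 3.31 CPM in empty-vector leaves, and 5.57, 6.42 and 5.36 CPM in wild-type leaves. The nearest after it, Potri.013G144500.1, had between 0 and 3.34 CPM. The correlation with the level of the run was 0.60 for Potri.013G133300.1 and −0.0028 for Potri.013G144500.1. With the member next to it, the correlation was −0.10 for Potri.013G133300.1 and 0.78 for Potri.013G144500.1, so the 2 ends differed in which of these measures was high.

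Rows elsewhere in the genome also followed the level of the run. Of 9966 tested rows outside it with a mean of at least 5 CPM, 62 correlated with its level above 0.9 and 570, or 5.72%, above 0.8. Below −0.9 there were 26 and below −0.8 there were 282. Of the 37 tested members that averaged 5 CPM or more, 6 correlated with the rest of the run above 0.9 and 19 above 0.8. The closest rows were Potri.T005700.1 at 0.961, Potri.016G013500.1 at 0.948, Potri.T006200.1 at 0.943, Potri.T058800.1 at 0.942 and Potri.T005800.1 at 0.942. IDs beginning with Potri.T belong to scaffolds not placed on a chromosome. They made up 9 of the 62 rows above 0.9, from 274 such rows, while 53 of the 62 came from 9692 rows with a chromosome number. Above 0.8 the shares lay the other way, with 13 of the 274 unplaced rows, or 4.74%, and 557 of the 9692 placed rows, or 5.75%.

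Potri.T005800.1 read 32.7, 9.14 and 23.9 CPM in knockout leaves, 88.9, 17.5 and 58.2 CPM in intermediate leaves, 12.0, 34.8 and 14.8 CPM in empty-vector leaves, and 271, 151 and 20.7 CPM in wild-type leaves. It was highest in the same wild-type libraries as the run. The most negative rows were Potri.002G112300.2 at −0.96 and Potri.005G259900.1 at −0.95. Potri.002G112300.2 read 11.3, 9.38 and 14.6 CPM in empty-vector leaves and 5.38, 4.63 and 9.04 CPM in wild-type leaves.

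Between knockout and the 6 controls (empty-vector and wild-type), 4 of the first 9 tested rows of the run were called higher in knockout. By the sign of the fold change alone, most of the first 9 rows lay higher and most later rows lay lower. Among the 4 called, Potri.013G134600.1 passed the count filter only through its knockout libraries. edgeR's quasi-likelihood test over all rows, with Benjamini-Hochberg adjustment and a threshold of 0.05, called 5 of 50 members higher, or 10.0%, where 17.1% of all rows were called higher. It called 5 lower, again 10.0%, where 13% of all rows were called lower. Both directions together gave 10 members, or 20%, where 30.1% of all rows were called. The members' shares were thus no larger than the background, and since the run was proposed for its variation they support nothing. The median log2 fold change was −0.56 over the members and −0.02 over all rows, and 35 of 50 members had a value below 0, against 51.3% of all rows.

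The 4 members called higher in knockout near the start of the run lay within its first 9 tested rows. Potri.013G133400.1 read 76.5, 61.5 and 48.8 CPM in knockout leaves and 21.3, 18.9 and 21.7 CPM in intermediate leaves. It read 13.0, 16.2 and 17.8 CPM in empty-vector leaves and 16.3, 13.5 and 18.5 CPM in wild-type leaves. All 3 knockout libraries lay above the 9 others, and the 9 others lay close together. It was 3.90-fold higher in knockout than in controls (95% interval 3.07 to 4.97), with an edgeR adjusted p of 4.4e-06.

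Its neighbour Potri.013G133800.1 read 15.1, 13.2 and 12.6 CPM in knockout leaves, 6.797, 6.84 and 5.94 CPM in intermediate leaves, 4.47, 5.01 and 4.06 CPM in empty-vector leaves, and 5.19, 3.74 and 5.06 CPM in wild-type leaves. Again no knockout library overlapped with any other, and the fold change was 2.96 (95% interval 2.33 to 3.75; edgeR adjusted p = 2.0e-05). The correlation of the pair, 0.965 over the 12 libraries, was 0.470 with genotype means subtracted. Whether the counts of the pair share reads is not given in the sources used here.

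Potri.013G135600.1 averaged 31.8 ± 1.98 CPM in knockout leaves (n = 3, SD) against 16.4 ± 4.19 CPM in control leaves (n = 6, SD), 1.97-fold higher (edgeR adjusted p = 0.0011, 95% interval 1.52 to 2.54), and its knockout libraries lay above all 9 others. Potri.013G134600.1, a row with few counts, averaged 2.15 ± 0.268 CPM in knockout leaves (n = 3, SD) against 0.806 ± 0.210 CPM in control leaves (n = 6, SD). It passed the count filter only through the knockout libraries, in which it was high, so no ratio is given and its call supports nothing. Potri.013G144000.1, the next to last member, averaged 208 ± 33.2 CPM in knockout leaves (n = 3, SD) against 129 ± 24.0 CPM in control leaves (n = 6, SD). It was 1.60-fold higher, with an edgeR adjusted p of 0.013 and a 95% interval of 1.22 to 2.11. This call was lost without knockout library 1 (edgeR adjusted p = 0.077). In intermediate leaves the row averaged 202 ± 41.6 CPM (n = 3, SD), close to its knockout mean. Intermediate lay 1.57-fold above controls (95% interval 1.19 to 2.06), which did not pass the threshold (edgeR adjusted p = 0.40).

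Of the 5 members called lower in knockout, the last of the run, Potri.013G144200.1, differed most. It read 2.05, 1.31 and 85.6 CPM in knockout leaves and 43.9, 613 and 195 CPM in intermediate leaves. It read 375, 159.5 and 378 CPM in empty-vector leaves and 284, 385 and 365 CPM in wild-type leaves. Knockout libraries 1 and 2 were far below every other library, knockout library 3 was below all controls, and intermediate library 1 lay below knockout library 3. It was 10.6-fold lower in knockout (95% interval 1.86 to 61; edgeR adjusted p = 0.042). The call was lost in 8 of the 12 fits with 1 library left out, those without knockout library 1 or 2, intermediate library 3, empty-vector library 1 or 3, or any wild-type library (edgeR adjusted p between 0.054 and 0.12). It was also lost with either control genotype alone. Over all its alternatives the adjusted p lay between 5.1e-04 and 0.12 (edgeR, DESeq2 and limma-voom). Its log2 fold change of −3.41 was −7.62 without knockout library 3.

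Potri.013G134300.1 read 0.171, 0.373 and 2.41 CPM in knockout leaves and 1.65, 8.01 and 9.44 CPM in intermediate leaves. It read 2.98, 6.06 and 6.51 CPM in empty-vector leaves and 10.4, 9.62 and 2.76 CPM in wild-type leaves. The 3 knockout libraries lay below all controls, while intermediate library 1 lay among them. The row was 5.43-fold lower in knockout (95% interval 1.79 to 16.5, edgeR adjusted p = 0.025). This call was lost without knockout library 1 or 2, in limma-voom and against empty-vector alone (adjusted p between 0.064 and 0.096). The log2 fold change was −4.52 without knockout library 3, where all libraries gave −2.44. Knockout libraries 1, 2 and 3 held 1, 2 and 22 counts of the row. The first 2 of these lie below 3 counts, the limit that a count of 0 allows. The fold changes thus rest on few knockout counts.

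The other 3 lower members, Potri.013G138800.1, Potri.013G142200.1 and Potri.013G142800.1, were among the 27 members that correlated with the rest of the run above 0.8. Potri.013G138800.1 averaged 4.78 ± 1.90 CPM in knockout leaves (n = 3, SD) against 13.4 ± 9.90 CPM in control leaves (n = 6, SD), and Potri.013G142200.1 averaged 5.12 ± 1.69 CPM in knockout leaves (n = 3, SD) against 14.6 ± 11.4 CPM in control leaves (n = 6, SD). Potri.013G142800.1 averaged 2.23 ± 0.180 CPM in knockout leaves (n = 3, SD) against 6.04 ± 3.8 CPM in control leaves (n = 6, SD). They were 2.48-, 2.65- and 2.46-fold lower, with edgeR adjusted p of 0.047, 0.045 and 0.018. For all 3 the call was lost without knockout library 1 or 2, in limma-voom and against empty-vector alone. That of Potri.013G138800.1 was also lost without intermediate library 3, empty-vector library 2 or 3, or wild-type library 1 or 2. That of Potri.013G142200.1 was also lost without knockout library 3, any intermediate library, empty-vector library 2, or wild-type library 1 or 2. Over the alternatives (edgeR, DESeq2 and limma-voom) the adjusted p lay between 0.014 and 0.38 for Potri.013G138800.1, 0.011 and 0.24 for Potri.013G142200.1, and 0.0048 and 0.24 for Potri.013G142800.1. Potri.013G138800.1 read 4.96, 2.80 and 6.58 CPM in knockout leaves, 5.68, 11.0 and 6.19 CPM in empty-vector leaves and 31.7, 17.3 and 8.58 CPM in wild-type leaves, so that the knockout libraries overlapped with those of empty-vector.

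The count of lower members moved with the choice of control genotype. Against wild-type alone edgeR called 15 members lower and 5 higher, or 30% and 10%, where 11.7% and 15.7% of all rows were called. Against empty-vector alone it called 0 lower and 5 higher, where 11.4% and 13.5% of all rows were called. limma-voom with all controls called 1 lower and 5 higher, where 11.4% and 16.7% of all rows were called. Without knockout library 1 or 2 edgeR called 0 members lower, where 8.02% and 8.13% of all rows were called. At an unadjusted edgeR p under 0.05 there were 11 members lower and 5 higher against all controls, where 18.9% and 21.9% of all rows were, and 40.7% in either direction.

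**Figure D5:**
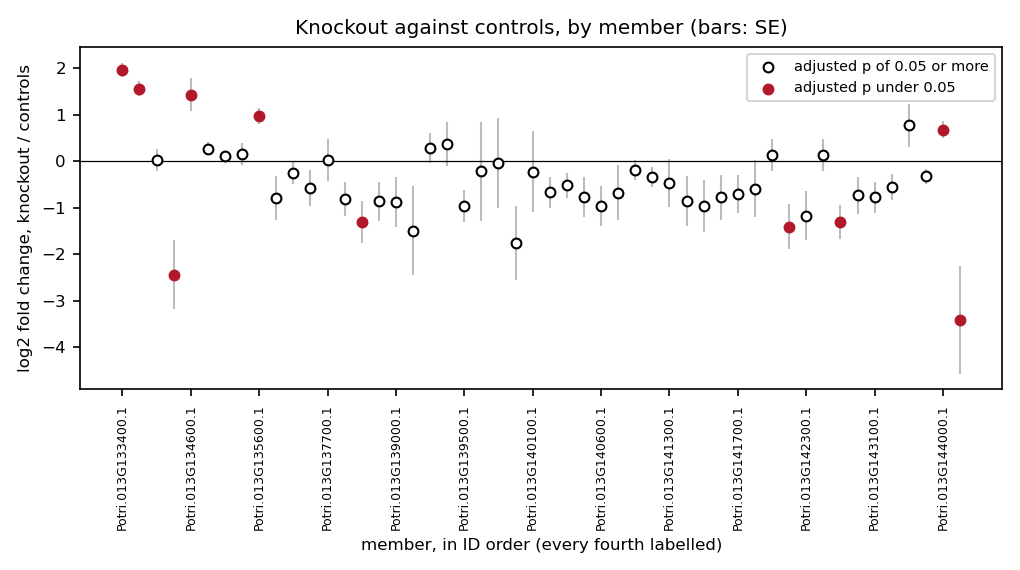
Log2 fold change of knockout over controls for the 50 tested members in ID order, with SE; filled points have an edgeR adjusted p under 0.05. The filled points above 0 sit at the start of the run and at Potri.013G144000.1, and most members in between lie below 0 without passing the threshold.

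Between knockout and intermediate, edgeR called 3 members higher in knockout, where 9.94% of all rows were called higher, and 1 lower, where 7.41% were. The higher ones were again opening rows. Potri.013G133400.1 was 3.01-fold higher, with an edgeR adjusted p of 2.7e-04 and a 95% interval of 2.24 to 4.04. Potri.013G133800.1 was 2.09-fold higher, with an edgeR adjusted p of 0.0025 and a 95% interval of 1.57 to 2.78. Potri.013G135600.1 was 1.86-fold higher, with an edgeR adjusted p of 0.010 and a 95% interval of 1.37 to 2.53. Potri.013G134300.1 was lower (log2 fold change −2.50, or −4.55 without knockout library 3; edgeR adjusted p = 0.0496), a call lost without knockout library 1 or 2, intermediate library 2 or 3, empty-vector library 1 or 3, or wild-type library 1 or 2, and also with RLE scaling, with a stricter filter and in limma-voom. Its adjusted p over these alternatives lay between 0.0083 and 0.16 (edgeR, DESeq2 and limma-voom). The fold change of this row rests on few knockout counts, 1 and 2 of them in libraries 1 and 2. The comparison shares its knockout libraries with the one against controls.

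Between intermediate and the controls, edgeR called 0 of 50 members, where 0.007% of all rows were called. At an unadjusted edgeR p under 0.05 there were 3 higher and 0 lower, where 4.55% and 1.84% of all rows were, and 6.39% in either direction, and DESeq2 and limma-voom called 0 members, where they called 0.441% and 0.007% of all rows. Log2 fold changes ran from −0.92 to 1.33, with a median of −0.03 over the members and −0.0010 over all rows.

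The control genotypes, empty-vector and wild-type, were the pair between which most members lay on 1 side. Of the 50 members 47, or 94.0%, had a lower mean in empty-vector than in wild-type in the fit, where 44.8% of all rows did, and the median log2 fold change was −1.01 over the members and 0.05 over all rows. edgeR called 0 members, where 0.042% of all rows were called, 0.035% higher and 0.007% lower, and limma-voom 0, where it too called 0.042% of all rows. DESeq2 called 2 members lower, or 4%, where it called 0.847% of all rows lower and 1.7% in either direction. At an unadjusted edgeR p under 0.05 there were 29 lower and 1 higher, where 8.05% and 8.82% of all rows were. Leaving out empty-vector library 2, which changed the filter so that 53 members were tested, gave 17 called lower, or 32.1%, and 0 higher by edgeR. In that fit 6.33% and 2.56% of all rows were called. No other library, left out alone, gave a call among the members. The member with the lowest adjusted p was Potri.013G141000.1 (edgeR adjusted p = 0.16). Its levels were 67.4, 114 and 78.4 CPM in empty-vector leaves and 176, 241 and 139 CPM in wild-type leaves, without overlap. In other members the libraries of these genotypes overlapped. Wild-type library 3 lay below empty-vector library 2 in Potri.013G138800.1 (8.58 against 11.0 CPM) and in Potri.013G140000.1 (42.1 against 121 CPM).

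Outside the run, Potri.016G014500.1 was taken as UGT71L1, a glycosyltransferase of salicinoid synthesis in poplar, from a published assignment not checked against an annotation. It read 9.58, 11.2 and 10.1 CPM in knockout leaves and 21.5, 35.7 and 28.2 CPM in intermediate leaves. It read 36.5, 77.2 and 33.5 CPM in empty-vector leaves and 53.8, 38.9 and 34.6 CPM in wild-type leaves. All knockout libraries lay below the 9 others (edgeR adjusted p = 2.3e-04 against controls). The labels do not name the edited gene, so it was not established that this row checks the genotype labels.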

How the data were processed

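RNA was measured in 12 leaf libraries, 3 in each of 4 genotypes grouped by the genotype label. Per the labels' protocols, mRNA was enriched on beads from phenol-extracted RNA. The values are whole-number read counts per transcript ID as deposited by the authors, 1 table per library. Tools listed, per the submitters' processing notes, are SAMtools, HISAT2, HTSeq, Cufflinks and DESeq2, with neither roles nor versions; build and strand setting: not given in the sources used here.

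Tests were run with edgeR 4.0.16 under R 4.3.3, after filterByExpr (14279 of 16866 rows kept, with 99.8% of counts) and TMM scaling, as quasi-likelihood tests on 4 group means with 8 residual degrees of freedom, two-sided, adjusted by Benjamini-Hochberg over all tested rows at 0.05. Controls were the average of the empty-vector and wild-type means. Levels and correlations were taken on log2 CPM (prior count 2). A count of 3, the limit that a count of 0 allows, was 0.175 to 0.576 CPM (counting error only). Alternatives used DESeq2 1.42.0, limma-voom 3.58.1, other scalings, filters and prior counts, and each library left out. The test was checked on simulated data.

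Named rows were the 10 most counted, the 10 with the largest SD, the 3 called rows with the largest fold change per comparison and direction, the 3 highest and 3 lowest adjacent pairs, the ends and the rows most like the run; all other called members were added after their values were seen. The members and lists were chosen with earlier results of these data known. No replicates of a genotype were within sampling noise of each other (lowest chi-square per degree of freedom 9.54). No annotation or sequence was used here.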

Additional observations from a re-analysis of the deposited data

Results flagged for a closer look

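In the 6 control libraries, the log2 CPM of Potri.013G144200.1 had 1 library far from the others: empty-vector library 2 was at 159.5 CPM, against 284 to 385 CPM in the 5 others. The gap to its nearest neighbour was 0.654 of the whole range, above the critical value of 0.625 for 6 samples. Of 23 sets of control values examined this was the only one past that value, and chance gives about 1 in 20.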

How the results depend on the processing

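No paired analysis was possible because the labels do not say that libraries of different genotypes belong together. Between knockout and controls, 10 members, or 20%, were called, where 30.1% of all rows were. In limma-voom 6 members, or 12%, were called, where 28.1% of all rows were. Wild-type alone gave 20 members, or 40%, against 27.3% of all rows, and empty-vector alone 5, or 10%, against 24.9%. Leaving out 1 library gave 4 to 14 members, or 7.55% to 26.4% of those tested, against 21.1% to 30.9% of all rows. Between knockout and intermediate, leaving out 1 library gave 3 to 7 members and 1566 to 3089 rows, where all libraries gave 4 and 2478. Between intermediate and controls, 1 row was called, against 2 without a filter, 63 in DESeq2, 0 with wild-type alone, 18 with empty-vector alone and 0 to 3 with 1 library left out; members stayed at 0 throughout. Between empty-vector and wild-type, 6 rows were called, against 3 with upper-quartile scaling, 243 in DESeq2 and 0 to 1302 with 1 library left out. Members were 0, against 2 in DESeq2 and 0 to 17 with 1 library left out, the 17 (of 53 then tested) without empty-vector library 2. With genotype means subtracted, the median neighbour correlation was 0.47 in the run and −0.14 in the rows after it, where the uncentred values were 0.67 and 0.03. The level of knockout library 1 lay between −0.25 and 0.13 with 1 library left out. The cause of these changes was not tested. No value that passed the threshold turned its direction in any alternative run. The alternatives for the flanking rows were chosen after seeing the data. With 3 libraries a genotype, and a biological coefficient of variation of 24.6%, small differences were not detectable, least of all in members with few counts.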
